A study of Mus musculus with 2 samples.

Results

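This report describes FOS binding at 6 genes of the hypoxia, vascular endothelial growth factor (VEGF) and endothelin pathways in mouse granulosa cells: Hif1a, Epas1, Vegfa, Flt1, Edn2 and Ednra. FOS is an AP-1 protein, which binds DNA as a dimer with a JUN protein, and granulosa cells line the ovarian follicle and nourish the oocyte. A peak, a stretch of the genome enriched in the FOS immunoprecipitate, was counted for a gene if the authors named it as the nearest gene or as the gene that holds the peak. By this rule 5 of the 6 genes had a peak, with 9 of the 2374 peaks between them, and Vegfa had none. Across the genome 8.69% of 21887 protein-coding genes had a peak by the same rule. The same count of 5 members came from the nearest gene alone (7.58% of protein-coding genes) and from any peak within 50 kb of the gene (18.2%). The genes were not drawn at random, having been named with earlier results of these data known, so the shares are given side by side with no test.

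The cells came from ovaries of wild-type females 25 days old that had been primed with PMSG, a gonadotropin that makes follicles grow, and were taken by puncture of follicles 3 h after hCG, a hormone that stands in for the luteinizing hormone surge. The series holds 2 libraries, both from cells so treated. The peaks come from the FOS immunoprecipitate. The remaining library names no antibody in its label and was not analysed here. With 1 library there is no replicate, no untreated cell and no read count, so the depth is unknown, no value carries an error between animals, and the strength of a peak is given as the authors' peak score, which ranks peaks within this list. The scale of the score is not stated, so a strong peak here is one with a high score, which may not measure the amount of binding. Scores ran from 13 to 2234 with a median of 67 and an upper quartile of 99. A peak list does not measure expression, so the cell type on the label could be set only against where peaks lie: 6 of 12 granulosa marker genes and 2 of 12 endothelial marker genes had a peak, against 8.69% of all protein-coding genes. Flt1, a member, was 1 of those 2 endothelial genes, and 1 of the 11 others had a peak, a share near that background.

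HIF1A and EPAS1 (HIF-2 alpha) are transcription factor subunits that are destroyed when oxygen is plentiful and that, when oxygen is short, pair with ARNT and bind the hypoxia response element. VEGFA, a secreted factor whose gene is a classical target of these subunits, drives the growth of new vessels and binds the receptor encoded by Flt1 as well as KDR. Endothelin 2, the product of Edn2, is a contractile peptide that granulosa cells make shortly before the follicle ruptures, and EDNRA is a receptor through which endothelins act.

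Epas1 held the strongest of the 9 peaks. It lay inside the gene, in intron 1 of 15, at chr17:86769600-86770084 (mm10), with a score of 173 and rank 147 of 2374, and its centre was 15.98 kb downstream of the transcription start site (TSS). It was the only one of the 9 peaks downstream of the TSS of its gene. The other Epas1 peak, at chr17:86535872-86536161, scored 82 (rank 861). It lay 218 kb upstream of Epas1 in intron 10 of 14 of Prkce, the protein kinase C epsilon gene next to Epas1, and was counted for Epas1 because its TSS was the nearest. The Epas1 peaks were thus 233 kb apart and differed in score, the one inside the gene being higher than 93.8% of all peaks and the one inside Prkce higher than 62.8%. A further peak inside Prkce, of score 106 in another intron, was assigned by the authors to 2010106C02Rik and lay 309 kb upstream of the Epas1 TSS.

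Hif1a had the most peaks of the 6 genes, and all 3 were upstream of the TSS that the authors used. Only 4.57% of the protein-coding genes with a peak had 3 or more. The farthest, at chr12:73779270-73779696, scored 99 (rank 591) and lay 128 kb upstream, just past the neighbouring gene Prkch and within the noncoding gene Gm34189. The middle peak, at chr12:73894900-73895392, scored 88 (rank 754), lay 12.7 kb upstream and was the widest of the 9 at 493 bp. The nearest, at chr12:73901074-73901468, scored 51 (rank 1618), lay 6.60 kb upstream and was the only one of the 9 below the median score. Of the 3, the peak nearest to the TSS scored lowest and the farthest scored highest.

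The authors classed the peak of score 51 as intergenic, but it overlaps the outermost start of Hif1a in the RefSeq table of GRCm38.p6 (the same assembly as mm10). That table starts the gene at position 73901324, which is 250 bp past the start of the peak and 53 bp from its centre. The TSS used by the authors, at position 73907867, lies 6.54 kb further into the gene. With the RefSeq start in place of the authors', 1 of the 6 genes had a peak over a start site, against 0 by the authors' promoter class. This measure was chosen after the data were seen. The share of all protein-coding genes that meet it was not counted, so the count has no background beside it. Which start is used in these cells was not measured. On the other side of the gene, a peak of score 60 assigned to Snapc1 lay 8.51 kb past the end of Hif1a.

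The 250 bases before the Hif1a start that the authors used are shown because the peaks pass them by: the nearest peak ends 6.15 kb before this stretch. Capitals mark the core of the hypoxia response element, ACGTG, searched on both strands (RefSeq, GRCm38.p6, chr12:73907617-73907866, plus strand).
Hif1a: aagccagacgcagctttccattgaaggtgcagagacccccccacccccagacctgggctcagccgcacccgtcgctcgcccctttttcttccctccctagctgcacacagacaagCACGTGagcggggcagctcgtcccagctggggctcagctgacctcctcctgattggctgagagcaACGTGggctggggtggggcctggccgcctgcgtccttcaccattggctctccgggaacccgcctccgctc
The first run of capitals holds the core on both strands, overlapping, 135 bases before the start, and the second lies 70 bases before it. At least 1 ACGTG was present in 16.6% of all 32851 RefSeq windows of this length and in 30.6% of the 353 that a FOS peak overlapped. The AP-1 motif TGANTCA and the cAMP response element TGACGTCA, also searched on both strands, were not in the Hif1a window.

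**Figure D1:**
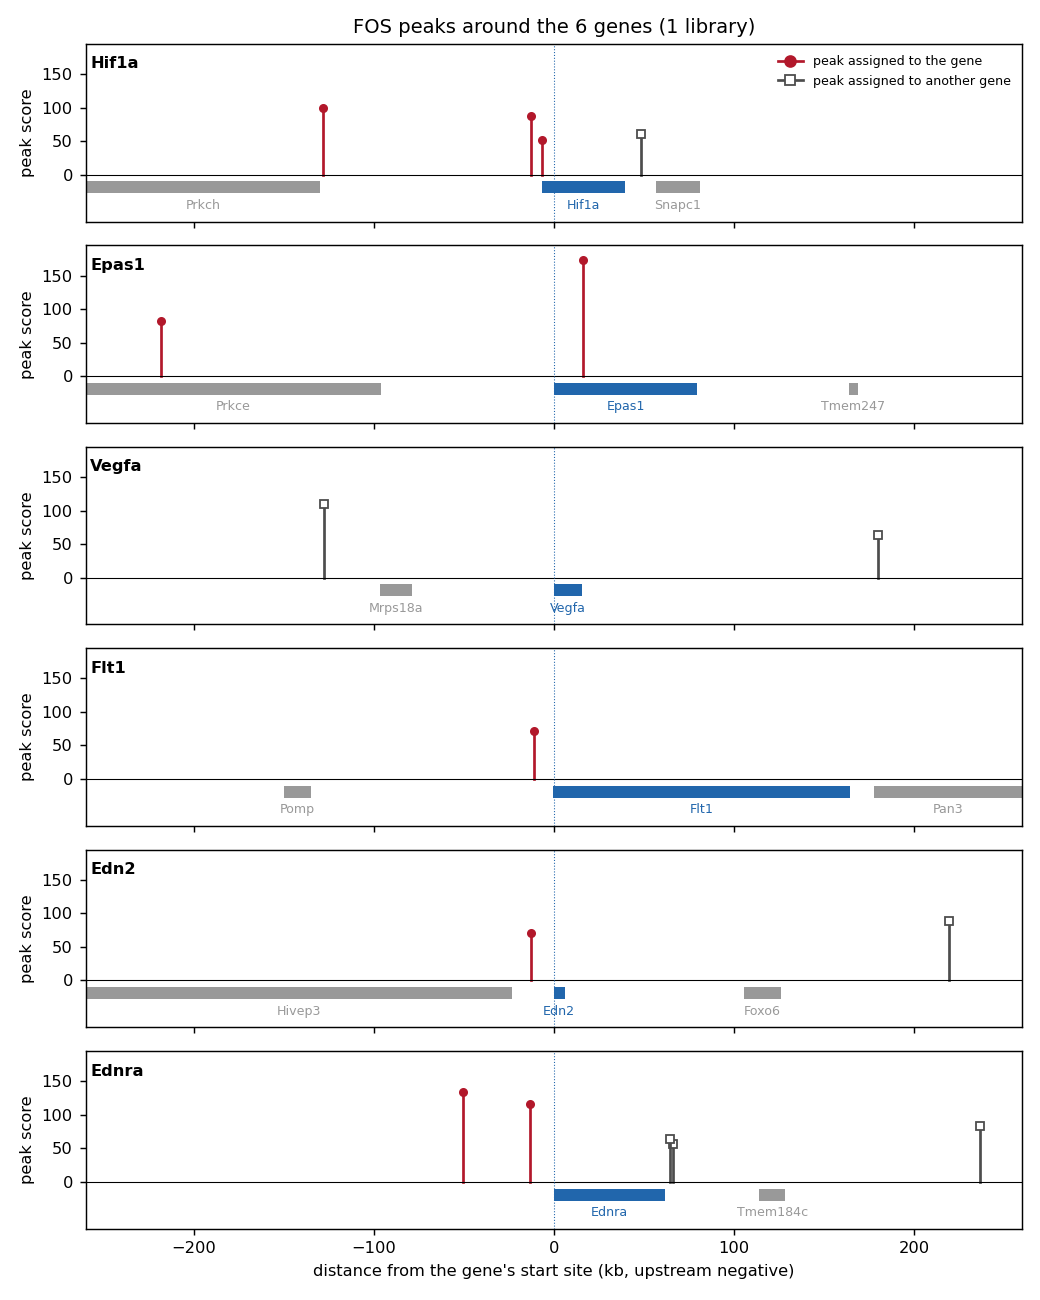
Peak score (vertical axis, authors' units) of each FOS peak by its distance in kb from the start site of the gene (horizontal axis, upstream negative, transcription to the right), with the gene in blue and the nearest protein-coding gene on each side in grey. Red circles are peaks assigned to the gene and open squares those assigned to others; all red circles but the Epas1 peak of score 173 lie left of 0, and Vegfa has none.

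The endothelin receptor gene Ednra had the next strongest peaks, both intergenic and upstream. The peak at chr8:77774808-77775299 scored 134 (rank 318) and lay 50.6 kb upstream, and the peak at chr8:77737313-77737717 scored 116 (rank 431) and lay 13.1 kb upstream. Both were above the upper quartile of scores, and Ednra was the only one of the 6 genes with more than 1 peak at or above it. They stand between Ednra and Ttc29 in 489 kb without a protein-coding gene, the longest such stretch beside any of the 6 genes. The nearer peak lay within LOC108167319, a noncoding gene of the RefSeq table that spans 77723585 to 77767758 and overlaps the 5' end of Ednra.

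At the other end of Ednra a further pair of peaks lay close to the gene but was assigned elsewhere. These peaks, at chr8:77659719-77660020 (score 64) and chr8:77658398-77658665 (score 57), lay 3.01 kb and 4.36 kb past the 3' end of Ednra. The authors assigned both to 1700092C02Rik, whose TSS was closer. Both scored below the median of the list. With them, 5 peaks lay within 500 kb of Ednra, against a median of 1 for protein-coding genes.

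Edn2, the ligand gene, had 1 peak. It lay at chr4:120148657-120149012, was intergenic, scored 71 (rank 1067) and was 12.6 kb upstream of the TSS. The peak was 10.6 kb from the end of Hivep3, the next protein-coding gene upstream, so it stood near the middle of the 23.2 kb gap between the 2 genes. The ligand gene thus had a single peak near the median score, and the receptor gene had 2 peaks that ranked above it. The next peak on that chromosome was 213 kb past the end of Edn2, with a score of 89, and was assigned to Scmh1.

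Flt1 also had 1 peak, equal in score to that of Edn2. It lay at chr5:147736882-147737181, was intergenic, scored 71 (rank 1067) and was 11.0 kb upstream of the TSS, in the 134 kb between Flt1 and Pomp. No other peak lay within 500 kb of Flt1. The Flt1 promoter held a full cAMP response element, a sequence that some AP-1 and ATF dimers are known to bind, with no peak over it: the nearest peak was 10.6 kb from the window. The element is shown in capitals within 30 bases of the promoter, starting 81 bases before a RefSeq start (GRCm38.p6, chr5:147726074-147726103, minus strand). The RefSeq span of Flt1 extends past the element to position 147726438, so this start is not the outermost.
Flt1: gggggacccctTGACGTCActggaaggagg
TGACGTCA was present in 1.55% of all RefSeq windows and in 6.80% of the 353 windows that a FOS peak overlapped. The match is a description of the letters and does not show a site in use.

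Vegfa was the only one of the 6 genes with no peak. The nearest, at chr17:46159805-46160168, scored 110 and lay 127 kb upstream of the gene, next to the start of Gtpbp2, from whose TSS it was 1.05 kb away. On the other side the nearest was a peak of score 64 lying 164 kb past the 3' end of Vegfa and assigned to 1600014C23Rik. Even so, Vegfa was nearer to a peak than most genes: the median distance between a protein-coding gene and its nearest peak was 279 kb, and 67.6% of genes were farther from one than Vegfa. No peak in this list says only that none passed the authors' threshold there.

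The 250 bases before the outermost Vegfa start are shown for comparison with those of Hif1a (RefSeq, GRCm38.p6, chr17:46032378-46032627, minus strand).
Vegfa: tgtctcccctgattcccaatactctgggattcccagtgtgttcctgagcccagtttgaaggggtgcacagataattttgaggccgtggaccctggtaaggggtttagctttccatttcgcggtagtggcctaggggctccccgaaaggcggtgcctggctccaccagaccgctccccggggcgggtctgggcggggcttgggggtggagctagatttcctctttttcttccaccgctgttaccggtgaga
None of the 3 motifs was in this window, so it has no capitals. Bases farther upstream were not searched. The promoter table lists a further Vegfa start inside the gene, and the 250 bases before that start held 1 ACGTG on the opposite strand, 211 bases before it, with no peak over them. The windows of Edn2 and Ednra held none of the 3 motifs either. TGANTCA was absent from the windows of all 5 members that the promoter table lists. It was present in 6.75% of all windows and in 25.2% (exact 95% interval 20.8 to 30.1) of those that a FOS peak overlapped. That interval treats windows as separate, though windows of the same gene can overlap, so it may be too narrow. No peak overlapped a member window, and the bases under the member peaks were not searched. The absence from the member windows therefore says nothing about motifs under those peaks.

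Set against the whole list, the 9 peaks were more often intergenic and upstream, and most scored above the median. Their median distance to the TSS was 13.1 kb, against 18.2 kb over the list, but 1 of 9 lay within 10 kb, against 38.3% of all peaks. None was in the authors' promoter class (0 of 9, exact 95% interval 0 to 33.6%), which held 15.2% of all peaks, and 7 of 9 were intergenic against 35.4% of all. Of the 9, 8 lay upstream of the TSS, against 44.6% of all peaks. Scores of the 9 ran from 51 to 173 with a median of 88, and 8 of 9 were above the median of the list, as were 49.2% of all peaks. Of the 9, 4 were at or above the upper quartile, as were 26.0% of all peaks, and these 4 came from Epas1, Ednra and Hif1a, so 3 of the 6 genes had such a peak against 2.55% of protein-coding genes. Widths ran from 290 to 493 bp with a median of 405 bp, against 342 bp over the list. The intervals cover counting error only, and peaks of 1 gene share a locus, so these counts are a description.

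**Figure D2:**
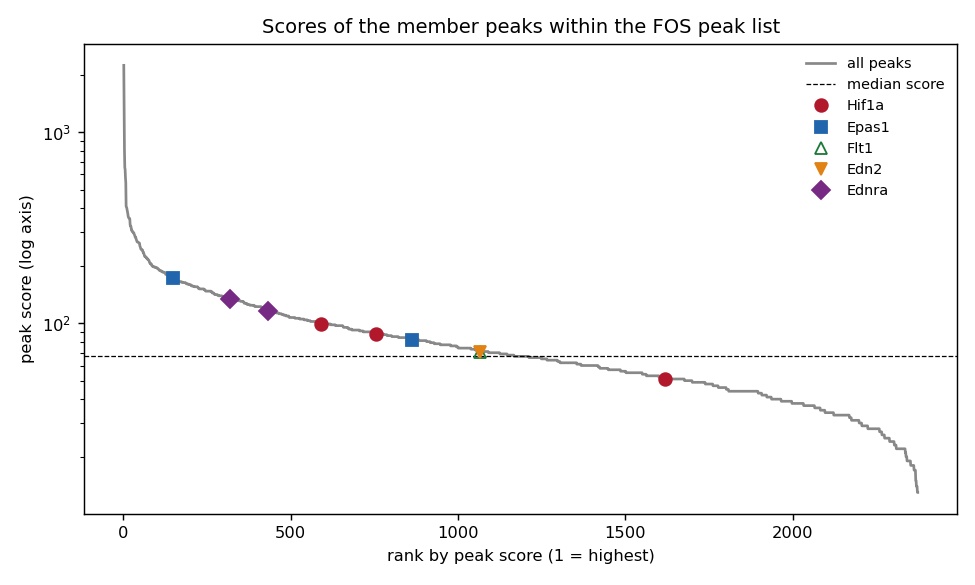
Peak score on a log axis against rank for all 2374 peaks (grey line), with the 9 member peaks as coloured symbols and the median score of 67 as a dashed line. The Epas1 and Ednra peaks of score 173, 134 and 116 stand highest, the Flt1 and Edn2 symbols coincide at 71, and 1 Hif1a peak of score 51 lies below the line.

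Distances from the TSS resembled each other in 4 of the genes. Flt1, Edn2, Hif1a and Ednra each had a peak 11.0, 12.6, 12.7 and 13.1 kb upstream. Over the whole list 2.53% of peaks lay 10 to 14 kb upstream of the nearest TSS, and 0.201% of protein-coding genes were the nearest gene of such a peak. The window was chosen after these distances were seen, and no test was made. The start site matters for this measure: for Hif1a the near edge of the same peak lies 5.93 kb before the outermost start in RefSeq. The other distances here run from the peak centre.

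**Figure D3:**
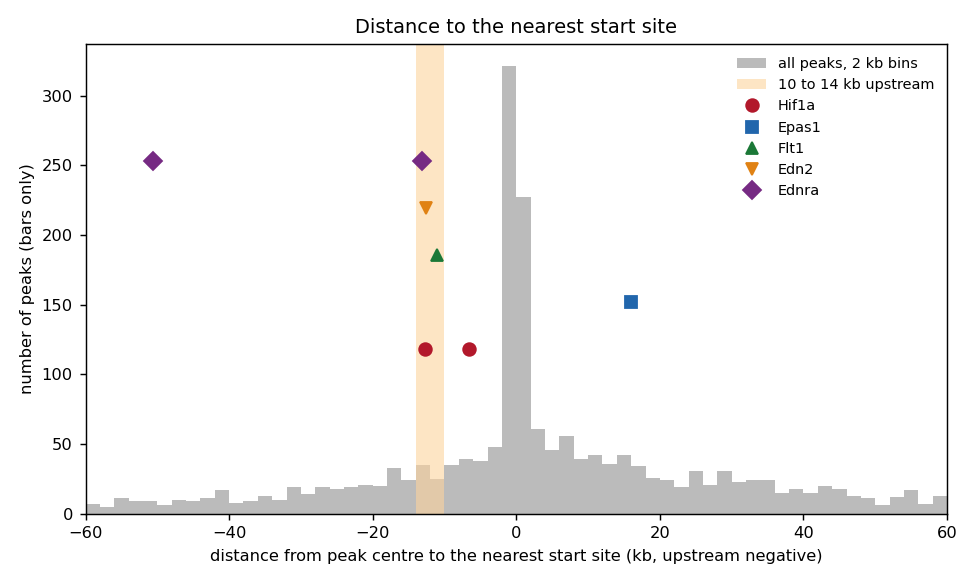
Number of FOS peaks per 2 kb of distance to the nearest start site (grey bars, upstream negative), with the member peaks that fall within the axis as symbols at heights that carry no value. Symbols of Hif1a, Flt1, Edn2 and Ednra stand inside the shaded window from 10 to 14 kb upstream.

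All 6 genes stand in longer stretches of the genome than the median gene, and genes in long stretches more often had a peak in this list. The span between the neighbouring protein-coding genes was 129 kb for Edn2, 186 kb for Hif1a, 259 kb for Epas1, 312 kb for Flt1, 377 kb for Vegfa and 603 kb for Ednra, against a median of 72.4 kb. When all protein-coding genes were put into 10 groups of equal size by this span, 9.50% of those in the group of Edn2 had a peak, 12.6% in that of Hif1a, 14.8% in that of Epas1, Flt1 and Vegfa, and 15.4% in that of Ednra. Those shares are all above the 8.69% of all genes. The part of the span in the members' count was not tested.

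Of 10 genes of the oxygen-sensing system 3 had a peak, against 8.69% of all protein-coding genes. They were the members Hif1a and Epas1 and, as 1 of the 8 other genes, a share near that background, Egln3, which encodes a prolyl hydroxylase that marks HIF subunits for destruction. The Egln3 peak scored 22 and lay 105 kb downstream of the TSS, so it ranked 2310 of 2374. Arnt, the partner of both subunits, had none. Its nearest peak, of score 123, was 162 kb from the gene, against a median of 279 kb for protein-coding genes. Vhl, whose product recruits the ligase that degrades the subunits, had none assigned, but a peak of score 44 assigned to Irak2 lay 23.4 kb from it. Within this list of 10, the genes with a peak above the median score were Hif1a and Epas1.

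Of 30 genes that HIF is known to induce, Vegfa among them, 7 had a peak (23.3%, exact 95% interval 9.93 to 42.3), against 8.69% of all protein-coding genes. The count depended on the rule. It was 5 by nearest gene alone (7.58% of protein-coding genes) and 11 with any peak within 50 kb of the gene (18.2%). Lox, a collagen cross-linking enzyme, had the highest score (82, lying 29.2 kb upstream), followed by Ddit4, an inhibitor of mTOR signalling (74, at the transcription end site). Eno1, a glycolytic enzyme, held a peak of score 70 within intron 2 of 11, which the authors assigned to the near-identical copy Eno1b, so its gene is uncertain. Pfkfb3, a regulator of glycolysis, held a peak of score 66 in its intron 1 of 14. Plod2, a lysyl hydroxylase, held a peak of score 60 that was assigned to B430319G15Rik, and Kdm3a a promoter peak of score 57. None of the 7 peaks of this list reached the upper quartile of scores, as 26.0% of all peaks did, and 7 peaks are too few to show a difference. Hif1a and Epas1 each had 1 peak that reached it, that of Hif1a by equalling the quartile of 99. Egln3 is in both lists.

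Kdm3a, a histone demethylase gene, was the 1 gene of the HIF target list with a peak of the promoter class. The peak, at chr6:71632653-71633766, was the widest of the whole list at 1114 bp although its score of 57 was below the median. It covered an AP-1 motif, shown in capitals within 30 bases, 175 bases before one of the RefSeq starts of the gene (GRCm38.p6, chr6:71632843-71632872, minus strand).
Kdm3a: gccgtcgtgggTGACTCAgggaggcgggag
The sequence is shown because it is from a HIF target promoter window under a FOS peak. No promoter window listed for a member lay under one, though a Hif1a peak overlapped the outermost RefSeq start of Hif1a.

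Peaks in the VEGF, angiopoietin and endothelin families were at members alone, with 0 of 13 other VEGF and angiopoietin genes and 0 of 5 other endothelin genes. With 8.69% of all protein-coding genes having a peak, lists this short are too small to show a difference from the background. Of 15 VEGF and angiopoietin genes 1 had a peak (6.67%, exact 95% interval 0.169 to 31.9), and that was Flt1. Kdr, the main signalling receptor of VEGFA, was 561 kb from its nearest peak, Pgf, a further FLT1 ligand, 110 kb and Flt4 158 kb. Of 7 endothelin genes 2 had a peak (28.6%, interval 3.67 to 71.0), the members Edn2 and Ednra. Edn1, the best known endothelin gene, was 193 kb from its nearest peak, Ednrb, the other receptor gene, 1771 kb and Ece1, which encodes a converting enzyme, 465 kb. Within the endothelin family peaks were thus seen at 1 ligand gene and 1 receptor gene. The median distance from a protein-coding gene to its nearest peak was 279 kb. By that measure Pgf, Flt4 and Edn1 were nearer to a peak than the median gene, and Kdr, Ednrb and Ece1 were farther.

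Of the marker lists, granulosa markers had peaks at 6 of 12 genes (50%, interval 21.1 to 78.9) and endothelial markers at 2 of 12 (16.7%, interval 2.09 to 48.4). Both shares are above the 8.69% of all protein-coding genes. Without the member Flt1, 1 of the 11 other endothelial markers had a peak, a share near that background. With peaks at or above the upper quartile of scores alone, the counts were 1 granulosa and 0 endothelial markers. The highest granulosa scores were at Esr2 (139, in intron 4 of 7), Inhba (91, lying 724 kb downstream), Nr5a2 (81, lying 278 kb upstream) and Cyp19a1 (64, lying 29.3 kb upstream). The peaks inside Inhba and Nr5a2 scored 69 and 29. The Cyp19a1 peak, upstream of the start that the authors used, lies inside the RefSeq span of the gene. The endothelial genes were Flt1 (71) and Cdh5, which held a peak of score 51 in intron 2 of 11 that was assigned to Gm29682. Flt1 is also a member. Whether endothelial cells were among the cells fixed was not tested.

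**Figure D4:**
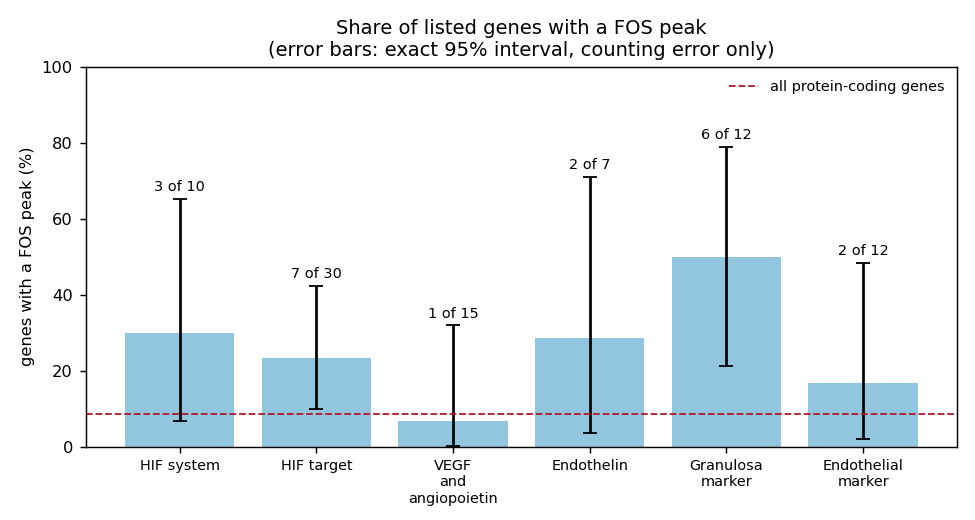
Percent of the genes in each of 6 lists with a FOS peak (bars from 0, with exact 95% intervals for counting error and the counts above) and the 8.69% of all protein-coding genes as a dashed line. The granulosa markers stand highest at 6 of 12, and the VEGF and angiopoietin genes lowest at 1 of 15. The bars include the members, which were named with earlier results of these data known. Without members the counts were 1 of 8 (HIF system), 7 of 29 (HIF targets) and 0 of 13 (VEGF and angiopoietin). They were 0 of 5 for endothelin genes and 1 of 11 for endothelial markers.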

How the data were processed

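FOS ChIP-seq peaks of 1 library were analysed. Per the file headers, the authors annotated a narrowPeak file with HOMER annotatePeaks, and the build was mm10. The submitters' processing notes name MACS2 2.2.7.1 as a tool, with BWA, Trim Galore and deepTools 3.5.1. For the peak threshold, any control library and filters, nothing is stated in the sources used. The deposited peak score is the authors' score, a whole number of unstated scale. Distances and gene names are theirs.

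Gene names were matched to a RefSeq table of GRCm38.p6 by accession, symbol or older symbol. All nearest-gene names matched, and the hosts of 3 peaks did not. Promoter sequences came from RefSeq, with 5 of 6 members listed. Motifs were searched in the 250 bases before each start, and not in the bases under the member peaks. Intervals are exact Clopper-Pearson 95% intervals. Counting was checked on simulated data. Alternatives covered the score, the distance to the TSS, gene assignment and the promoter definition.

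The members and lists were chosen with earlier results of these data known. Named were all members, every list gene with a peak (the 4 highest scores where more than 4 had one), the neighbours of each member and the 3 genes most like each in number of peaks and best score. Kdm3a, Plod2, Kdr, Pgf, Flt4, Edn1, Ednrb, Ece1, Arnt, Vhl, the noncoding genes and the genes of neighbouring peaks were named after their values were seen. Python 3.11.15 with pandas 2.3.3, numpy 2.4.6, scipy 1.17.1 and matplotlib 3.10.9 was used.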

Additional observations from a re-analysis of the deposited data

How the results depend on the processing

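Of 59 alternatives, 33 kept their value within 1.5 times the reported count, or unchanged for the median score, and 26 did not. The count of 5 members with a peak held with scores at or above the median, within 100 kb of the TSS, by nearest gene alone and with any peak within 50 kb of the gene. Of the 21887 protein-coding genes, 1040, 1727, 1658 and 3983 had a peak by these rules in turn. With peaks at or above the upper quartile of scores alone, 3 members, 4 member peaks, 558 protein-coding genes, 0 HIF targets, 0 VEGF and angiopoietin genes, 1 endothelin gene, 1 granulosa marker and 0 endothelial markers were left. Within 10 kb of the TSS there were 1 member, 1 member peak, 842 protein-coding genes, 1 HIF system gene, 3 HIF targets, 0 VEGF and angiopoietin genes, 0 endothelin genes, 2 granulosa markers and 0 endothelial markers. At or above the median score there were 1040 protein-coding genes, 3 HIF targets, 3 granulosa markers and 1 endothelial marker. Nearest gene alone left 1 endothelial marker. Any peak within 50 kb of the gene gave 3983 protein-coding genes (18.2%) and 11 HIF targets. Without Hif1a, the member with the most peaks, the median member score was 99 in place of 88. A peak over the outermost RefSeq start, an alternative chosen after seeing the data, gave 1 member with a promoter peak in place of 0. The share of all genes by that alternative was not counted. No paired analysis was possible because each group of labels holds 1 sample. The files give no depth, so peaks below the authors' threshold cannot be told from absent ones.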

Other observations

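Genes most like the members were sought among protein-coding genes with the same number of peaks, by the smallest log2 difference in best score within this 1 library. For Hif1a, with 3 peaks, they were Bach1 (best score 99), Adgrf5 (99) and Itga2 (98), out of 65 other genes with 3 peaks. For Epas1, with 2 peaks, they were Gtdc1 (174), Synpo (172) and Cirbp (176), out of 229 others. For Ednra they were Myo10 (134), Rptor (135) and Maml3 (133). Flt1 and Edn2 share their score of 71 with each other and with other genes of 1 peak, 17 in all beside each, so no gene stood out as most like either.

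The members' loci held 21 peaks within 500 kb, of which 9 were counted for a member. The other 12 scored between 34 and 121, and the strongest was a peak of score 121 assigned to Cited4, lying 460 kb past the end of Edn2. Cited4 encodes a transcriptional coregulator of the CITED family. Near Epas1 a promoter peak of Socs5, a suppressor of cytokine signalling, scored 116 and lay 273 kb past the end of the gene.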
